A study of Mus musculus with 50 samples.

Results

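Neocortex arrays with a high Fos signal were set against neocortex arrays with a low one, within 2 groups of mice. Fos is an immediate early gene, transcribed within minutes of strong synaptic input, so its level is widely used as a readout of recent neuronal activity. The groups were 10 S1P2-KO arrays and 10 wild-type arrays, 20 of the 50 arrays of the series. In each group the 5 arrays with the highest Fos signal formed the high-Fos class and the other 5 the low-Fos class, which gave 10 arrays against 10 with genotype as a term. The arrays were thus chosen by their Fos signal, and Fos itself is left out of the results. S1P2-KO mice lack S1P2, a receptor for the lipid sphingosine 1-phosphate encoded by S1pr2, and wild-type mice served as their controls. Seizures occur sporadically in S1P2-deficient mice between 4 and 7 weeks of age, and tissue of every group was collected at 8 weeks. S1P2-KO and wild-type groups held 5 males and 5 females each, and the titles call the replicates biological. The series text names the S1P2 mutant a second time where S1P3 mice would stand, and its group sizes do not match the titles, which were followed here. Strain and alleles are not given in the sources used here. Another 20 arrays came from hippocampus of the same 2 genotypes, and 5 from neocortex of mice deficient in a second receptor, S1P3.

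Activity-dependent transcription runs in waves. Calcium entry through synaptic receptors and channels activates kinases that phosphorylate factors already bound at promoters, such as SRF and CREB, and these switch on a first wave of transcription factor genes (Fos, Junb, Egr and Nr4a genes). The same wave includes genes that switch signalling off again, such as the Dusp phosphatases of MAP kinases. A later wave encodes secreted and synaptic proteins such as Bdnf, Homer1 and Nptx2, which act on the connections of the active cell.

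The Fos signals that set the classes are given as a description. In S1P2-KO neocortex the high-Fos arrays held 2539.0, 1358.8, 1269.1, 1169.9 and 1145.7, and the low-Fos arrays 1039.6, 1038.7, 996.9, 938.4 and 378.2. In wild-type neocortex the high-Fos arrays held 5738.9, 5404.1, 4202.4, 2921.9 and 2874.6, and the low-Fos arrays 2792.1, 2715.7, 2593.2, 1124.8 and 1051.5. The arrays just inside and just outside the high-Fos class thus lay close together, at 1145.7 and 1039.6 in S1P2-KO and at 2874.6 and 2792.1 in wild-type. Most of the spread came from a few arrays: replicates 2 and 1 at either end of S1P2-KO, and 3 high and 2 low arrays of wild-type.

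**Figure D1:**
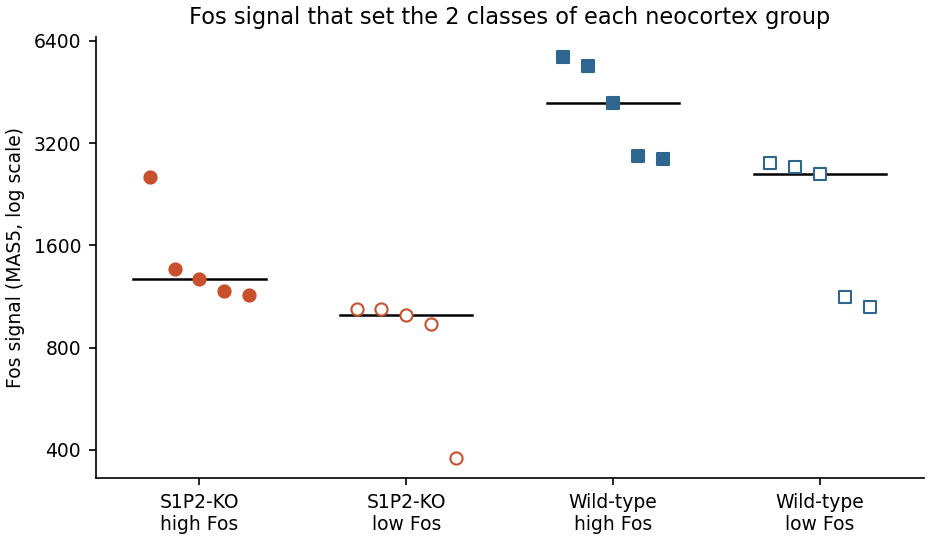
Fos signal (MAS5 units, log scale) of the 20 neocortex arrays in the 2 classes of each genotype. Each point is 1 array and each bar the median of 5 arrays; the classes meet within a narrow range in both genotypes, and single arrays reach 2539.0 and 378.2 in S1P2-KO.

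The classes differed in other ways too. The high-Fos class held 6 males and 4 females and the low-Fos class 4 males and 6 females; in wild-type the split was 4 males and 1 female in the high-Fos class against 1 male and 4 females in the low-Fos class, and sex was a covariate in the fits. The 3' to 5' ratio of control transcripts, a log2 measure of RNA integrity, had a median of 0.32 (0.0084 to 0.61) in the high-Fos arrays and 0.38 (0.16 to 0.41) in the low-Fos arrays. S1pr2 did not separate the genotypes: its signal ran from 347.7 to 824.7 (median 646.7) in S1P2-KO and from 425.6 to 875.8 (median 727.4) in wild-type neocortex. The position of its probes relative to the deleted sequence is not given in the sources used here. Between the classes the estimate was -0.03 ± 0.15 (SE, log2) for S1pr2 and 0.20 ± 0.12 for S1pr3, and neither passed the test.

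Markers of tissues and cell types were compared as well. Of 6 neocortex markers, 5 had a lower estimate in the high-Fos arrays, 1 of them at an unadjusted p under 0.05 in limma, against 2.14% of all probe sets. The summed signal of the 6 had a median of 18992 (15888 to 21070) in the high-Fos arrays and 20738 (17931 to 21709) in the low-Fos arrays. The largest list median among the markers was 0.30, for 4 choroid plexus genes, of which 3 had a higher estimate and 0 an unadjusted p under 0.05. Their summed signal was 521.2 (342.4 to 5551) in the high-Fos arrays and 616.7 (278.7 to 1470) in the low-Fos arrays (median and range). Ttr, the transthyretin of choroid plexus epithelium, had a median of 194.7 (30.4 to 4754.6) in the high-Fos arrays and 208.5 (46.8 to 970.9) in the low-Fos arrays. The part of these differences in the results was not tested. In whole tissue, fewer cells of a type and less RNA per cell cannot be told apart.

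The question was which transcripts vary with neuronal activity across animals. With the 2 classes compared directly, 0 of 8533 probe sets passed an adjusted p of 0.05 in limma (0%). An unadjusted p under 0.05 was reached by 398 probe sets (4.66%), of which 215 were higher (2.52%) and 183 lower (2.14%) in the high-Fos arrays. The smallest adjusted p was 0.543, for Anapc13, which encodes a subunit of the anaphase-promoting complex and averaged 1551 ± 199 in the high-Fos arrays against 1917 ± 131 in the low-Fos arrays (SD, n = 10 each). No probe set lay higher on every high array than on every low array in both genotypes (0%). A single probe set lay lower in this way (0.0117%), and its annotation names several genes.

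Activity genes nevertheless lay on the high side by estimate. The lists were chosen with earlier results of these data known, so their counts are a description and not a test. The list of transcription factors held 36 genes, of which 29 were on the arrays and 26 passed the filter on low signals. These counts were 33, 22 and 20 for signalling regulators, and 27, 18 and 17 for synaptic and secreted effectors. Of 26 tested transcription factor genes known to be induced by activity, 23 had an estimate above 0 and 11 an unadjusted p under 0.05, all of them higher. Their median estimate was 0.28 (log2), against -0.003 over all probe sets, of which 49% had an estimate above 0. For regulators of signalling, 15 of 20 genes had an estimate above 0 (median 0.083), and for synaptic and secreted effectors 13 of 17 (median 0.085). With 1 array left out at a time, the median of the regulators ran from 0.041 (without S1P2-KO replicate 2) to 0.128 (without S1P2-KO replicate 7), and that of the effectors from 0.050 (without wild-type replicate 4) to 0.113 (without S1P2-KO replicate 5). That of the transcription factors ran from 0.21 to 0.31. Of these 63 genes in all, 16 had an unadjusted p under 0.05 with a higher level in the high-Fos arrays, and 0 with a lower one. Over all probe sets these shares were 2.52% and 2.14%.

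**Figure D2:**
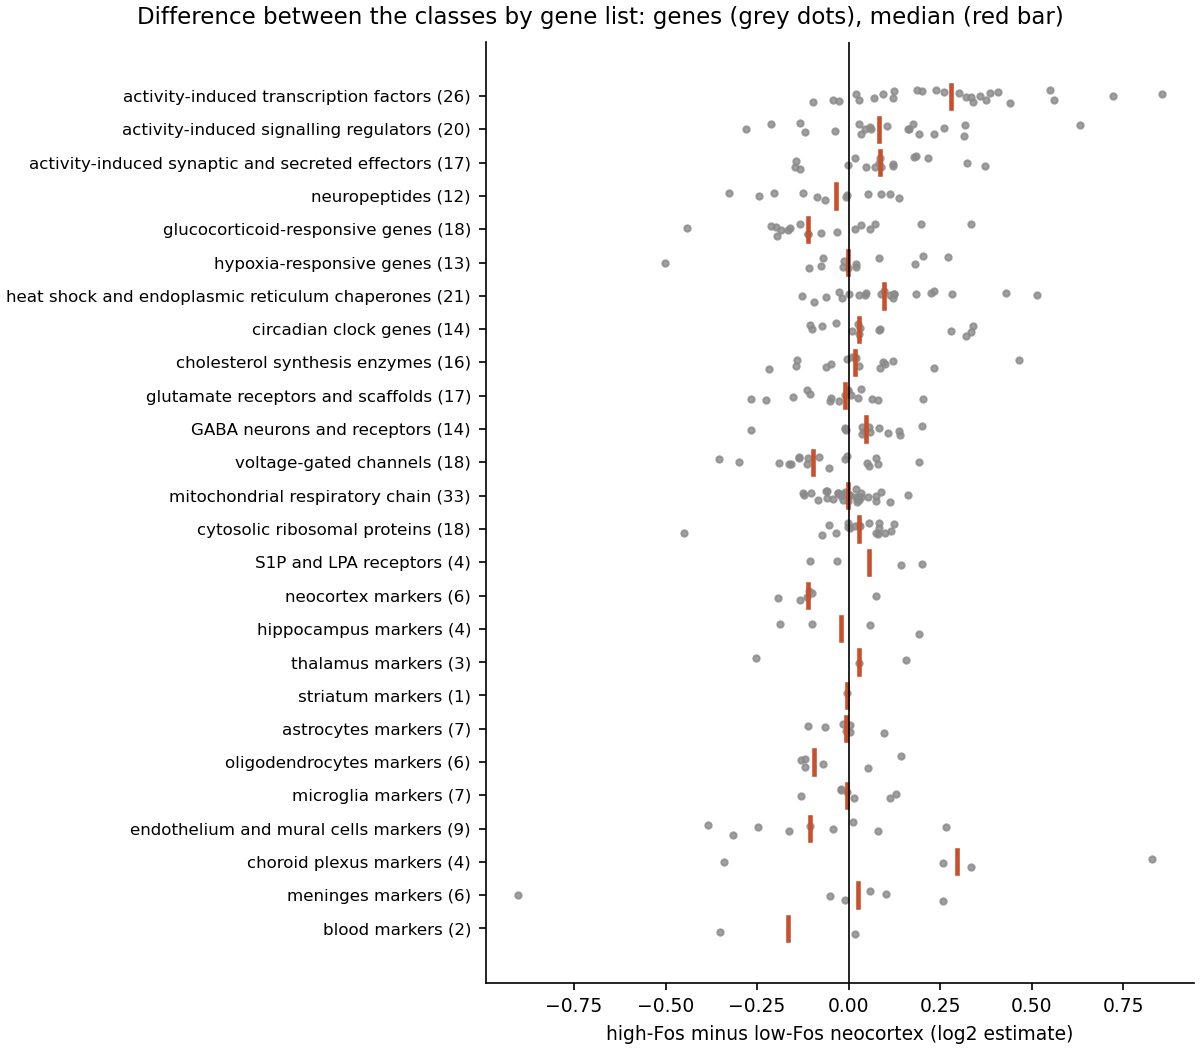
Estimated difference between high-Fos and low-Fos neocortex (log2) for the tested genes of 26 lists; each grey dot is a gene, each red bar the median of its list, and numbers in brackets are genes tested. The activity-induced transcription factors have a median of 0.28, and the 4 choroid plexus markers one of 0.30.

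Among transcription factors, Egr2, a zinc finger factor of the first wave, had the largest estimate of these lists. It read 617.9, 650.3, 651.9, 714.0 and 1927.6 in the high-Fos arrays and 366.1, 385.2, 430.4, 586.9 and 646.3 in the low-Fos arrays of S1P2-KO. In wild-type it read 1612.8, 1820.5, 1889.1, 2257.3 and 2302.9 in the high-Fos arrays and 423.8, 471.7, 1388.6, 1421.6 and 1621.3 in the low-Fos arrays. The classes overlapped by 1 array on either side in each genotype, and the 2 wild-type arrays with the lowest Fos stood far below the other 8. The difference was 0.85 ± 0.23 (log2, SE; 1.81-fold), unadjusted p = 0.00124 in limma, and did not pass adjustment (adjusted p = 0.898).

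Junb, which encodes a Jun partner of Fos in AP-1, read 997.2, 1666.2, 1922.8, 2328.2 and 3420.9 in the high-Fos arrays and 968.1, 1235.8, 1504.6, 1610.5 and 1676.6 in the low-Fos arrays of S1P2-KO. In wild-type Junb read 2448.7, 2932.3, 3569.7, 3779.5 and 3970.3 in the high-Fos arrays and 1141.7, 1396.1, 2430.7, 2637.9 and 2807.3 in the low-Fos arrays. The classes overlapped in both genotypes, and the difference was 0.56 ± 0.19. Ier2, a nuclear protein of the first wave, was apart in wild-type alone: its high-Fos arrays held 833.1 to 1216.2 and its low-Fos arrays 345.8 to 746.4. In S1P2-KO the Ier2 classes overlapped widely, at 469.4 to 902.6 against 329.8 to 764.4.

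Egr1, the zinc finger factor also called Zif268, read 6287 to 8587 in the high-Fos arrays and 4976 to 6701 in the low-Fos arrays of S1P2-KO. In wild-type Egr1 read 9453 to 13971 in the high-Fos arrays and 6297 to 12202 in the low-Fos arrays, and the ranges overlapped in both genotypes. Klf4, a Krüppel-like factor, reached 553.0, 640.8 and 651.5 on 3 of the wild-type high-Fos arrays, against 69.8 and 82.3 on 2 of the low-Fos arrays; the other 5 wild-type arrays lay between 285.8 and 341.3. In S1P2-KO, Klf4 ran from 215.4 to 334.5 in the high-Fos arrays and from 139.1 to 258.1 in the low-Fos arrays. Nr4a1, an orphan nuclear receptor, did not sort by class in S1P2-KO, where it read 1465 to 3056 in the high-Fos arrays and 1256 to 3108 in the low-Fos arrays. In wild-type it read 3619 to 5700 in the high-Fos arrays and 971.6 to 4359 in the low-Fos arrays.

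Other transcription factors were described by their estimates, none of which passed adjustment. Btg2, an antiproliferative cofactor, had an estimate of 0.44 ± 0.15, Klf10 0.38 ± 0.14 and Bhlhe40, a clock-linked repressor, 0.32 ± 0.11. Nr4a2, an orphan nuclear receptor, averaged 1185 ± 244 in the high-Fos arrays and 1183 ± 250 in the low-Fos arrays, and Jun, an AP-1 subunit, 843 ± 142 in the high-Fos arrays and 899 ± 150 in the low-Fos arrays (SD, n = 10 each). Fosb, a close relative of Fos, averaged 2785 ± 1129 in the high-Fos arrays and 2228 ± 753 in the low-Fos arrays, a difference of 0.26 ± 0.17.

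Among signalling regulators, Dusp1 encodes a nuclear phosphatase that switches off MAP kinases. Dusp1 read 1465.3, 2161.4, 2169.2, 2401.4 and 2435.7 in the high-Fos arrays and 1274.3, 1478.8, 1600.9, 1637.0 and 2107.0 in the low-Fos arrays of S1P2-KO. In wild-type it read 2565.3, 3035.8, 4112.8, 5324.9 and 5595.9 in the high-Fos arrays and 1115.6, 1700.2, 2539.1, 2691.3 and 2937.2 in the low-Fos arrays. In each genotype 4 of the 5 high arrays lay above every low array, and the difference was 0.63 ± 0.18 (unadjusted p = 0.00156). Dusp6, a cytoplasmic phosphatase selective for ERK, averaged 2740 ± 596 in the high-Fos arrays and 2186 ± 465 in the low-Fos arrays, and Pim1, a kinase, 1368 ± 260 and 1080 ± 184 (SD, n = 10 each).

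Among effector genes, 2 of 17 had an unadjusted p under 0.05, both higher, against 2.52% of all probe sets that were higher at that p. Gpr3, a constitutively active receptor, had an estimate of 0.37 ± 0.15 and Timp1, an inhibitor of matrix proteases, 0.32 ± 0.14. Bdnf, the neurotrophin of the later wave, averaged 2487 ± 442 in the high-Fos arrays and 2096 ± 406 in the low-Fos arrays (0.22 ± 0.11). Homer1, whose short form is induced by activity, averaged 515 ± 169 and 516 ± 198, and its second probe set had an estimate of 0.17, also short of the threshold. Nptx2, a secreted pentraxin that clusters receptors, had an estimate of 0.12 ± 0.16.

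Genes outside the activity lists were described in the same way. Among all probe sets, 49% had an estimate above 0. An unadjusted p under 0.05 was reached by 2.52% with a higher level and 2.14% with a lower one. Heat shock and endoplasmic reticulum chaperones had an estimate above 0 in 16 of 21 genes (median 0.098), and 4 had an unadjusted p under 0.05, all higher. Hspa1b, a stress-induced Hsp70, read 623.7, 765.6, 792.1, 795.5 and 800.1 in the high-Fos arrays and 373.4, 461.3, 479.4, 531.7 and 576.7 in the low-Fos arrays of S1P2-KO, with no overlap. In wild-type Hspa1b read 617.4, 687.8, 740.1, 772.5 and 1054.9 in the high-Fos arrays and 358.8, 492.3, 602.4, 651.7 and 735.9 in the low-Fos arrays, which overlapped. Its difference was 0.51 ± 0.12 (unadjusted p = 0.000396, adjusted p = 0.773); Hspa1a had 0.43 ± 0.17, Manf, a secreted factor of the stressed endoplasmic reticulum, 0.28 ± 0.08, and Dnajb1, an Hsp40, 0.23 ± 0.10.

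Circadian clock genes had 10 of 14 estimates above 0, with Bhlhe40, Per2 (0.28 ± 0.13) and Per1 (0.33 ± 0.16) at an unadjusted p under 0.05; Per1 and Bhlhe40 also belong to the activity list. Estimates were below 0 in 12 of 18 glucocorticoid-responsive genes, in which Per1 was the 1 gene with a higher level at that p and Mt1, a metallothionein, and Map3k6 were the 2 with a lower one. That lean did not hold in the fit on the Fos signal itself, given below. Voltage-gated channels had 13 of 18 estimates below 0 (median -0.097), and 0 of them reached an unadjusted p under 0.05. Estimates of the respiratory chain (15 of 33 above 0, median -0.002), cytosolic ribosomal proteins (12 of 18, 0.029), astrocyte (3 of 7, -0.008) and microglia markers (3 of 7, -0.006) had medians near 0. Markers of endothelium and mural cells had 6 of 9 estimates below 0 (median -0.10), and those of oligodendrocytes 4 of 6 (median -0.093). Acta2, the actin of smooth muscle, was the 1 gene of these lists at an unadjusted p under 0.05, with a higher level in the high-Fos arrays.

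Splitting at the middle of each group discards the distances between arrays, so the level of each probe set was also fitted on the log2 Fos signal itself, with genotype and sex as terms. A slope is the change in log2 level per doubling of Fos. In this fit 12 probe sets passed the adjusted threshold, all higher with Fos (0.141%), and 0 lower (0%). They represent 11 genes, of which 9 are in the activity lists: 6 transcription factor genes, 2 regulators by their brightest probe set, and Gadd45b by a dimmer one. In all, 478 probe sets had an unadjusted p under 0.05 (5.6%), of which 266 were higher (3.12%) and 212 lower (2.48%) with Fos.

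Egr2 rose most steeply, by 0.89 ± 0.10 per doubling of Fos (adjusted p = 6.9e-05), followed by Klf4 at 0.85 ± 0.12. Nr4a1 (0.69 ± 0.11), Junb (0.67 ± 0.08), Dusp1 (0.65 ± 0.09) and Ier2 (0.62 ± 0.08) formed a middle group, and Dusp6 (0.39 ± 0.06) and Egr1 (0.38 ± 0.06) had shallower slopes. Both Junb probe sets passed, the dimmer one at 0.73. Gadd45b, a stress-induced regulator of DNA demethylation, passed on a dimmer probe set (0.51 ± 0.07), whereas its brightest one had 0.16 and did not. Stk40, a kinase-related gene (0.26 ± 0.05, adjusted p = 0.0431), and Dhh, which encodes a hedgehog ligand (0.54 ± 0.11, adjusted p = 0.0467), lay outside the lists and were named after their values were seen. The brightest Dhh probe set went the other way, at -0.05, so the 2 disagree.

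**Figure D3:**
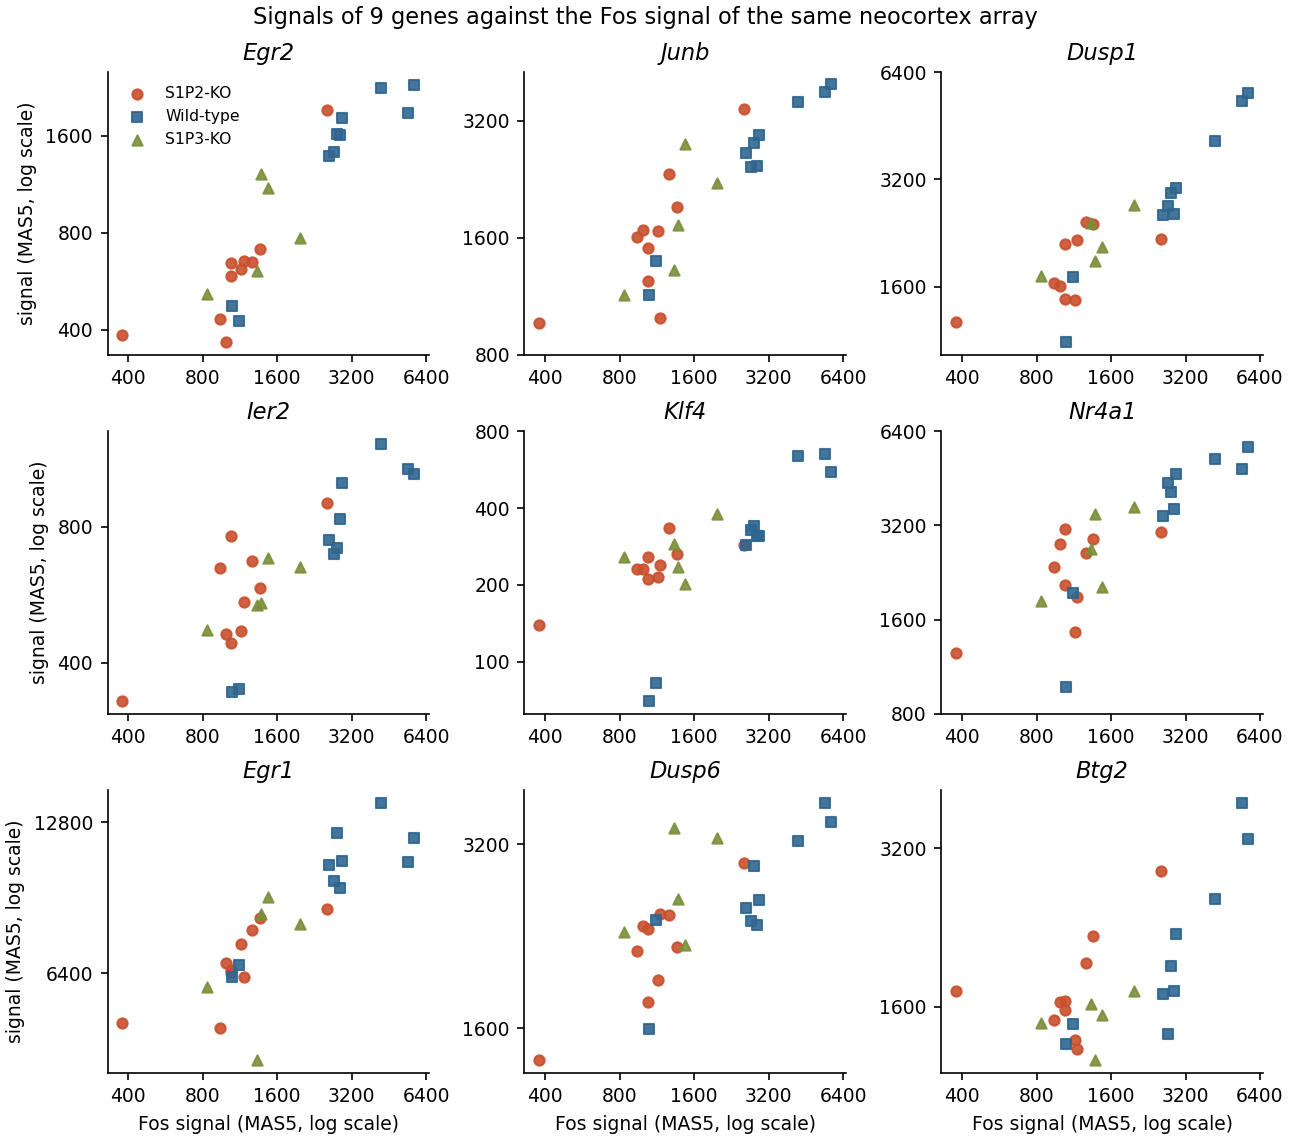
Signals of 9 genes against the Fos signal of the same neocortex array (MAS5 units, both axes on a log scale) for 10 S1P2-KO, 10 wild-type and 5 S1P3-KO arrays. Of these genes 8 passed the test of the slope and Btg2 did not, and the wild-type arrays split into 2 with low Fos and 8 with higher Fos.

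These calls rested partly on few arrays. Leaving out 1 array at a time gave 10 to 16 calls, and Egr2, Egr1, Junb, Ier2, Klf4, Nr4a1, Dusp1, Dusp6 and the dimmer Gadd45b probe set passed in all 20 of these fits, Stk40 in 5 and Dhh in 3. Without wild-type replicates 6 and 7, the 2 with the lowest Fos, 3 probe sets passed (Egr2, Junb and Dusp6), and the slopes of Klf4 and Nr4a1 were 0.53 and 0.45, no longer past the threshold. Without the 3 wild-type arrays with the highest Fos, 11 passed. Near the threshold lay Id1 (0.37 ± 0.08, adjusted p = 0.0515), Btg2 (0.42 ± 0.09, adjusted p = 0.063), Klf10 (0.39 ± 0.09, adjusted p = 0.112) and Fosb (0.39 ± 0.10, adjusted p = 0.179).

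**Figure D4:**
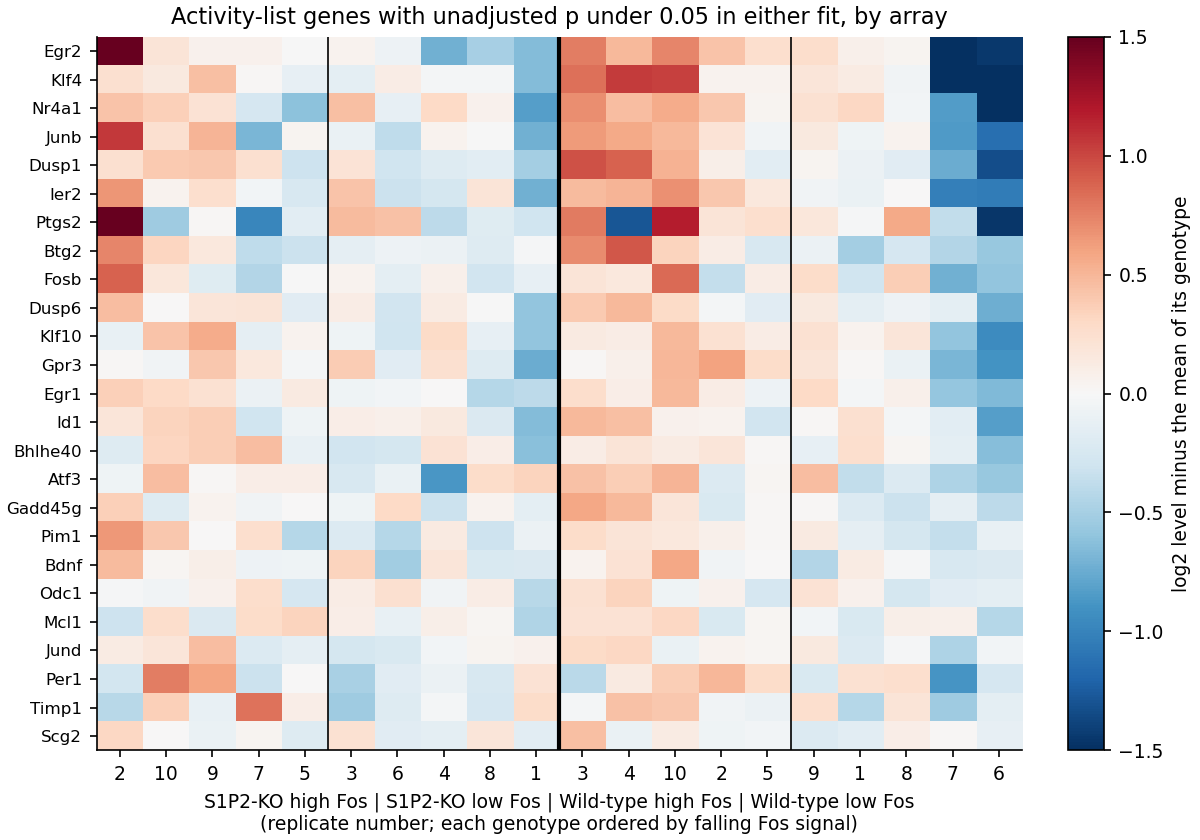
Log2 levels of 25 activity-list genes with unadjusted p under 0.05 in either fit, minus the mean of each genotype, by array; S1P2-KO stands left of wild-type, and arrays run from high to low Fos within each. The colour scale ends at 1.5 either side of 0; the deepest blue lies mostly at wild-type replicates 6 and 7 and the deepest red mostly at S1P2-KO replicate 2 and wild-type replicates 3, 4 and 10.

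Promoter sequence is shown for 4 of these genes, since they moved together with Fos and since motifs of the factors named above can be looked for in it. RefSeq windows of assembly GRCm38.p6, the 250 bases before a transcript start, matched 9 of the 11 genes. Egr1 and Ier2 had no window, so their promoters were not searched. Capitals mark a CArG box, the motif of SRF, in Egr2, the CRE TGACGTCA, the motif of CREB, in Dusp1, and GCGNGGGCG, an Egr motif, on either strand in Klf4 and Nr4a1.
Egr2, chr10:67537619-67537868, plus strand: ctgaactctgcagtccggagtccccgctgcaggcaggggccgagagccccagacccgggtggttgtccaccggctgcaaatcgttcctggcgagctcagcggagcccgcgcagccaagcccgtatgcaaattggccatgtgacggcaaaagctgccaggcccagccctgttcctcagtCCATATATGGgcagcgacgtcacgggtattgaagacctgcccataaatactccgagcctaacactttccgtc
Dusp1, chr17:26508473-26508722, minus strand: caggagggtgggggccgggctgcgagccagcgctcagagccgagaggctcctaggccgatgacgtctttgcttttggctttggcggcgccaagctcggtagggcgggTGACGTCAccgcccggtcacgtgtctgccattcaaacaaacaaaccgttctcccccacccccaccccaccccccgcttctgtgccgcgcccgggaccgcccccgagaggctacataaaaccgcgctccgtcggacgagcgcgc
Klf4, chr4:55532476-55532725, minus strand: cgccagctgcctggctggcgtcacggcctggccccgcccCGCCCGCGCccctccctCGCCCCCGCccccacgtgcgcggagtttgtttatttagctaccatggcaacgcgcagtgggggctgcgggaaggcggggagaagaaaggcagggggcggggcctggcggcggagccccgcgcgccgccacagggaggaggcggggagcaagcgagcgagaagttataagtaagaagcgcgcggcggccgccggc
Nr4a1, chr15:101266596-101266845, plus strand: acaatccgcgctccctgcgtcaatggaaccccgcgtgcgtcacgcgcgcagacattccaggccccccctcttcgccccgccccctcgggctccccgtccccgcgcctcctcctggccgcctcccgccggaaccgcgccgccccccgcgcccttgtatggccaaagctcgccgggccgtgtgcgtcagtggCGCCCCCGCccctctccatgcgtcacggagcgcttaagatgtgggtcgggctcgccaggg

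The CArG box began 72 bases before this Egr2 start and was present in 1 of the 9 genes (11.1%; Egr2, in 4 of its 5 windows), against 1.67% of tested genes and 4.0% of the 50 tested activity-list genes with a window. Some of these Egr2 windows overlap and share the same site. A gene was counted if any of its windows held the motif, so a gene with several windows had more chances of a match. The CRE began 143 bases before the Dusp1 start, and 1 of the 9 genes held it (11.1%), against 2.9% of tested genes and 16.0% of activity-list genes. GCGNGGGCG was found in 3 of the 9 (33.3%; Klf4, Nr4a1 and Gadd45b), against 10.7% of tested genes and 28.0% of activity-list genes. TGANTCA, the AP-1 motif, was in 0 of the 9, in 5.78% of tested genes and in 2.0% of activity-list genes. Over all 32851 windows the shares were 1.47% for the CArG box, 1.55% for the CRE, 4.7% for GCGNGGGCG and 6.75% for TGANTCA. A match describes letters in a window and is not evidence of binding.

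The difference between classes was also set against genotype. Of 8533 probe sets, 0 passed the test of a different effect in S1P2-KO and wild-type (0%), with 241 at an unadjusted p under 0.05 (2.82%). The smallest p belonged to a dimmer probe set of Pdgfra, the receptor that marks oligodendrocyte precursors, which averaged 598.9 ± 257 in the high-Fos arrays against 246.6 ± 140 in the low-Fos arrays of S1P2-KO (SD, n = 5 each). In wild-type it averaged 204.4 ± 138 in the high-Fos arrays against 465.6 ± 182 in the low-Fos arrays. Cdh13 and Inhbc followed, and all 3 missed the threshold. Slopes on Fos did not differ past the threshold either (0 probe sets, 0%; 473 at an unadjusted p under 0.05, 5.54%). The slope estimate of all 12 called probe sets was larger in wild-type. These 12 were chosen by the slope over both genotypes, and each had a smaller SE in wild-type, so their common direction does not test genotype. It differed most for Klf4, with 0.35 in S1P2-KO and 1.23 in wild-type (limma unadjusted p = 8.19e-05, adjusted p = 0.200), and for Dusp1, with 0.33 in S1P2-KO and 0.89 in wild-type (adjusted p = 0.46). It hardly differed for the brightest Junb probe set (0.66 and 0.67) and Dusp6 (0.38 and 0.40). Fitted alone, the S1P2-KO arrays gave 0 calls and the wild-type arrays 15.

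The relation was also fitted in hippocampus arrays, which the ranking did not use. Fos there ran from 284.9 to 556.6 in S1P2-KO and from 356.5 to 2642.7 in wild-type. A slope on hippocampal Fos passed for 2 of 8533 probe sets (0.0234%), both higher: Nr4a1 (0.65 ± 0.10 per doubling, adjusted p = 0.0161) and Egr1 (0.45 ± 0.08, adjusted p = 0.0325). Nr4a1 had signals of 610.3 to 1338 (median 998.1) in S1P2-KO hippocampus and 815.3 to 3385 (median 2102) in wild-type hippocampus. Egr2 (0.71 ± 0.13), Dusp1 (0.44 ± 0.08), the dimmer Gadd45b probe set (0.45 ± 0.09) and a dimmer probe set of Nrp1, a receptor of semaphorins (0.36 ± 0.07), all had an adjusted p of 0.0543.

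The remaining genes among the 10 smallest p of the hippocampal slope were Snx12 (-0.35), a dimmer Rgs5 probe set (-0.72), Cenpb (-0.53) and Junb (0.42), and none of these passed. All 12 probe sets called in neocortex had a slope above 0 in hippocampus, and 9 had an unadjusted p under 0.05 there, against 315 of 8533 that were higher at that p (3.69%; 9.04% in either direction) and 49.7% with a slope above 0. Dusp6 (0.08 ± 0.08), Stk40 (0.06 ± 0.06) and Dhh (0.13 ± 0.23) were the 3 that did not reach it. A difference between the tissues was not tested. In S1P2-KO hippocampus, where Fos spanned little, the Egr2 slope was -0.52 in a fit with a slope for each genotype, against 0.86 in wild-type hippocampus. Dhh (-0.34), Ier2 (-0.25) and the dimmer Junb probe set (-0.04) were also below 0 in S1P2-KO in that fit. None of the 12 reached an unadjusted p under 0.05 in S1P2-KO hippocampus, whereas all 12 estimates were above 0 in wild-type hippocampus. Without the 2 hippocampus arrays with a 3' to 5' ratio above 1, 0 probe sets passed. These were S1P2-KO replicate 7 (Fos 483.7) and wild-type replicate 4 (Fos 2561.7). In wild-type hippocampus, replicates 3 and 4 had the highest Fos and also the highest ratios (0.749 and 1.198). In S1P2-KO hippocampus, replicate 9 had the highest Fos (556.6) and the lowest ratio. Leaving out wild-type replicate 4 thus removed a high Fos signal along with a high ratio, and their parts were not tested separately.

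**Figure D5:**
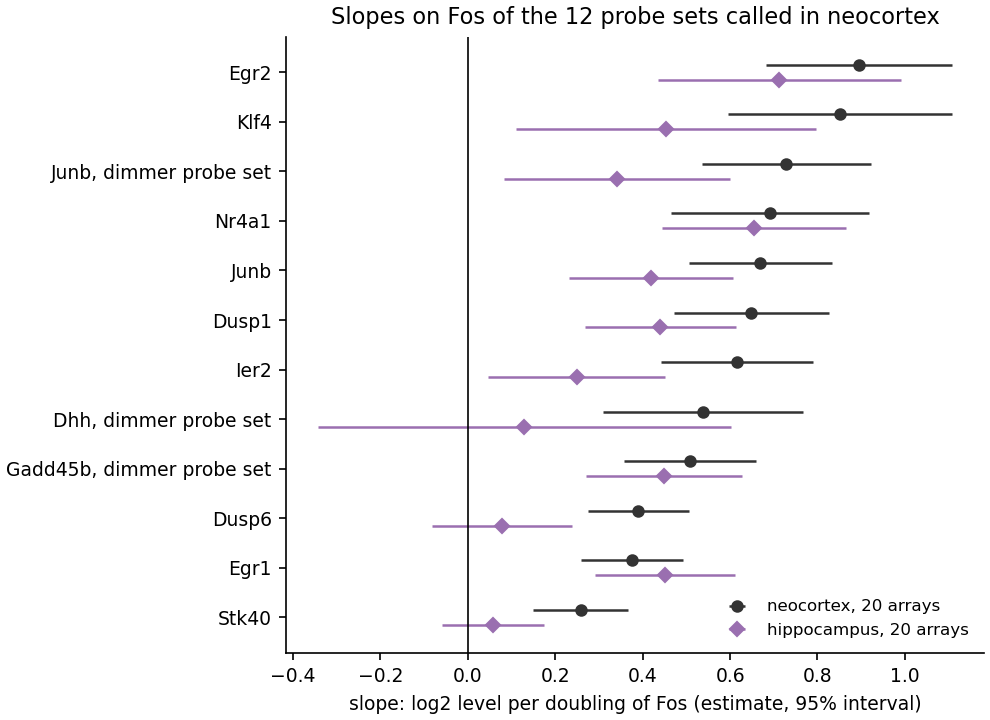
Slopes on Fos (log2 level per doubling of Fos, estimate and 95% interval) of the 12 probe sets called in neocortex, in neocortex (20 arrays) and in hippocampus (20 arrays). All 12 hippocampal estimates lie above 0, and the intervals of Stk40, Dusp6 and Dhh reach below it.

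Over all probe sets, 48.6% had a slope above 0 in neocortex and 49.7% in hippocampus. Across lists, slopes above 0 were found in 22 of 26 transcription factor genes in neocortex (median 0.24) and in 18 of 26 in hippocampus (median 0.056). For signalling regulators the counts were 18 of 20 in both tissues (medians 0.15 and 0.14), and for effectors 10 of 17 in neocortex (0.066) and 8 of 17 in hippocampus (-0.009). With 1 array left out at a time, the median of the transcription factors ran from 0.15 (without wild-type replicate 7) to 0.30 (without S1P2-KO replicate 1) in neocortex, and from 0.044 (without wild-type replicate 7) to 0.125 (without wild-type replicate 3) in hippocampus. That of the effectors ran from 0.046 (without wild-type replicate 7) to 0.128 (without S1P2-KO replicate 1) in neocortex. In hippocampus it changed sign, from -0.048 (without wild-type replicate 6) to 0.038 (without S1P2-KO replicate 7). Chaperones had slopes above 0 in 17 of 21 genes in neocortex and 19 of 21 in hippocampus, and voltage-gated channels in 3 of 18 and 5 of 18. Glucocorticoid-responsive genes had slopes above 0 in 14 of 18 in neocortex (median 0.041) and 15 of 18 in hippocampus (median 0.094). Most of their class estimates, by contrast, were below 0.

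The hippocampus array with the same replicate number as a high-Fos neocortex array was compared by its own Fos signal. That signal had a median of 595.9 (287.4 to 2642.7) for the high-Fos class and 422.7 (284.9 to 1034.6) for the low-Fos class. The mean difference was 0.59 (log2), with p = 0.0585 in a two-sided exact permutation test of the classes within genotype (63504 permutations). In S1P2-KO alone it was 0.14 (exact p = 0.508) and in wild-type alone 1.05 (exact p = 0.0873). The differences did not pass the test, and the labels do not say that equal numbers are 1 animal. Sex was not part of this test, although it was split unevenly between the wild-type classes. Over the tested probe sets, deviations of same-numbered neocortex and hippocampus arrays from the mean of their group and sex correlated at 0.036 to 0.225 in S1P2-KO, where 7 of 10 pairs exceeded 0.1 and 5 of 10 neocortex arrays correlated best with their own number. In wild-type they correlated at -0.057 to 0.188, where 5 of 10 pairs exceeded 0.1 and 1 of 10 correlated best with its own number. By Fos, wild-type replicates 3, 4 and 10 were highest in neocortex and also in hippocampus (2642.7, 2561.7 and 1652.3). Wild-type replicates 7 and 6 were lowest in both (439.5 and 356.5 in hippocampus). S1P2-KO replicates 2 and 1, highest and lowest in neocortex, read 287.4 and 284.9 in hippocampus. Whether the 2 tissues came from the same animals was not settled by the labels, so the hippocampus arrays may not be separate animals.

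In S1P3-KO neocortex, which no fit used, the 5 arrays ordered by rising Fos (831.5 to 1974.3) read 517.0, 608.6, 1217.7, 1102.1 and 771.1 for Egr2. Junb read 1137.0, 1318.8, 1728.6, 2780.5 and 2210.7, and Dusp1 read 1711.3, 2417.7, 1892.4, 2061.3 and 2712.2, in the same order. The array with the lowest Fos had the lowest signal for all 3 genes, whereas the array with the highest Fos had the highest signal for Dusp1 alone.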

How the data were processed

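Per the submitters' processing notes the deposited values are MAS5 signals: the authors deposited linear intensities of 12488 probe sets for each of 50 arrays. Their trimmed mean (2% cut at either end) lay between 1000.56 and 1000.66, so the arrays were already scaled, and no further scaling was applied. MAS5 subtracts mismatch signal, which makes low values noisy. Arrays carry no read depth, and their number limits the precision. Groups, sex and replicate numbers came from the titles; p-values measure the spread between these samples.

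Values were computed as log2(signal + 30.7), the 10th percentile of all signals, which understates the differences of dim genes. Those probe sets with a mean log2 level above the pooled 30th percentile were kept, without 66 control probe sets and the 2 Fos probe sets, which left 8533 for 6349 genes. The brighter Fos probe set over the 50 arrays set the classes. The package limma, version 3.58.1 under R 4.3.3, fitted genotype and sex as terms (lmFit, then eBayes with a trend). Adjusted p-values are Benjamini-Hochberg values over all probe sets, with a threshold of 0.05. The slope on Fos was an alternative to the 2 classes. The members and the 26 gene lists were chosen with earlier results of these data known.

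A gene stands by its brightest probe set unless stated. Named genes are S1pr2 and S1pr3, genes chosen from the 3 with the smallest p in each list described, the 3 with the smallest p for the genotype difference, and the 10 with the smallest p for the hippocampal slope. Anapc13, Btg2, Dhh, Dnajb1, Fosb, Homer1, Id1, Jun, Klf10, Klf4, Nptx2, Nr4a2 and Stk40 were named in addition, after their values were seen. Of the 12488 probe sets, 10833 had 1 gene symbol, 396 several and 1237 were counted as having none here. These counts do not cover every probe set. Promoter windows and coordinates are from RefSeq, GRCm38.p6. The procedure was tested on simulated data. Same-numbered arrays of the 2 genotypes correlated at -0.064 to 0.103 in neocortex and at -0.080 to 0.276 in hippocampus, where 4 of 10 exceeded 0.1. Not every same-numbered pair of the 2 tissues exceeded 0.1 either, so replicate numbers were not used as pairs.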

Additional observations from a re-analysis of the deposited data

Results flagged for a closer look

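Within 44 sets of 10 arrays, 5 values, on 4 arrays, stood further from the next value, relative to the range of their group, than Dixon's 95% value allows, where chance picks about 1 set in 20. In S1P2-KO neocortex, replicate 2 had the highest Fos signal at 2539.0 (group median 1092.7) and the highest Egr2 signal at 1927.6 (group median 632.1). Without it the neocortex slope on Fos gave 16 calls and an Egr2 slope of 0.83. The 3' to 5' ratio was 1.37 on S1P2-KO hippocampus replicate 7 (group median 0.31) and 1.198 on wild-type hippocampus replicate 4 (group median 0.39). Stk40 read 3318.3 on wild-type hippocampus replicate 10, above a group median of 2773.7.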

How the results depend on the processing

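The comparison of the 2 classes gave 0 calls under every alternative run except the continuous Fos term, with 12, and the difference between genotypes gave 0 under every alternative run. In male arrays alone the estimates of Bhlhe40 and Nr4a1 were -0.0022 and -0.0033. The neocortex slope on Fos gave 12 calls, and 10 to 16 with 1 array left out; it gave 3 without wild-type replicates 6 and 7, and 0 in S1P2-KO arrays alone, where the brightest Gadd45b probe set had -0.018. With the replicate number as a block it gave 3 calls (Egr2, Junb and Dusp1) and the hippocampal slope 84, of which 6 were higher. The labels do not give the numbers as pairs, and the cause was not tested. The hippocampal slope gave 2 calls, and 0 to 5 with 1 array left out. It gave 6 with a pseudocount of 100, 7 with a filter at the 50th percentile, 1 after quantile normalization, 8 without sex, 5 when the 3' to 5' ratio entered the model, 0 without the trend, 0 without arrays of a ratio above 1, and 0 in S1P2-KO arrays alone, where the median over signalling regulators was -0.0099 and the Egr2 slope -0.70; the causes were not tested. The neocortex slope was itself planned only as an alternative to the 2 classes. Some runs were added after the data were seen. These were all alternatives of the neocortex slope, with its single leave-outs, and the filter on the mean linear signal. The others were the leave-outs of several arrays, each genotype alone for the slopes, each sex alone for the classes, and the slope difference between genotypes.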
